A study of Mus musculus with 6 samples.

Results

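The 39 HOX cluster genes of the mouse were examined in RNA-Seq data from sciatic nerve. They were found by symbol among the 24015 entries of each count table, as every entry made of Hox, a cluster letter from a to d and a paralog number. HoxA held 11 of them, HoxB 10, HoxC 9 and HoxD 9. The study asked what the loss of Rnf40, an E3 ligase that places ubiquitin on histone H2B, does to Schwann cells, the myelin-forming glia of peripheral nerve. Control mice had the genotype Rnf40 fl/fl and no Cre. Rnf40ΔSC mice had the genotype Dhh::Cre, Rnf40 fl/fl, in which Cre is active in the Schwann cell lineage, so that the other cells of the nerve keep the gene. Each genotype had 3 libraries, and at postnatal day 14 the sciatic nerves were pooled by 3 for a library. According to the methods, mice of either sex were used. The labels give a mixed 129SvJ/C57Bl/6J background for all libraries, whereas the methods give C3H in place of 129SvJ.

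HOX genes encode transcription factors with a homeodomain, a DNA-binding fold. They lie side by side in their clusters, and genes of the same paralog group in different clusters descend from a common ancestor. In the embryo, low paralog numbers are used from the hindbrain backwards and high numbers only in the posterior trunk, the limbs and the tail. Many connective tissue cells keep such a pattern after birth, and HOX proteins bind DNA together with cofactors of the TALE class, such as PBX and MEIS proteins.

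In total 1317167, 1992622 and 2468765 reads were assigned to genes in control replicates 1, 2 and 3. The Rnf40ΔSC replicates 1, 2 and 3 had 2184268, 1459387 and 2186710. HOX genes received 277, 381 and 501 of these counts in control and 480, 284 and 543 in Rnf40ΔSC libraries, which is between 0.0191% and 0.0248% of a library. After scaling by TMM, which corrects for differences in composition, 1 read stood for 0.414 to 0.823 counts-per-million (CPM). A HOX gene with a few reads per library was therefore measured with a large counting error, and 6 of the 39 genes had no read in any library. These were Hoxa13, Hoxb13, Hoxc12, Hoxd1, Hoxd12 and Hoxd13.

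The deleted gene was examined first. Rnf40 had 82, 116 and 165 counts in control and 109, 75 and 118 in Rnf40ΔSC libraries. Brought to the same library size with TMM factors, these were 129 ± 7.92 normalized counts in control and 89.0 ± 2.16 in Rnf40ΔSC nerves (mean ± SD, n = 3 each), and the groups did not overlap. Rnf40 fell by -0.54 on the log2 scale (standard error 0.14). The adjusted p was 0.00242 in the quasi-likelihood test of edgeR, after Benjamini-Hochberg adjustment over all 11371 genes tested. With scaling by total counts the log2 fold change was -0.27 and the adjusted p was 0.12, the highest among the alternatives, which began at 0.00235. Fewer Schwann cells and less RNA per Schwann cell cannot be told apart in such bulk samples, for this or any other gene.

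The libraries also differed in the RNA of tissue beside the nerve. The 18 skeletal muscle genes listed summed to 5320, 4080 and 3030 CPM in control replicates 1, 2 and 3. They summed to 120 and 315 CPM in Rnf40ΔSC replicates 1 and 2, but to 3840 CPM in Rnf40ΔSC replicate 3. The most abundant of them was Myh4, a myosin heavy chain of fast fibres, with 1711, 1657 and 1571 counts in control and 58, 46 and 1473 in Rnf40ΔSC libraries, and none of the list was at 0 throughout. None of the 15 muscle genes tested passed an adjusted p of 0.05 in edgeR's test, with 0 at an unadjusted p under 0.05 and 0 by DESeq2. Without Rnf40ΔSC replicate 3, 14 of the 15 were lower, with a median log2 fold change of -4.13. HOX values of Rnf40ΔSC replicate 3, the library that resembled control in muscle RNA, are therefore given beside those of the other libraries. The Schwann cell list, with none of its genes at 0, summed to 69100, 81200 and 75800 CPM in control and to 19200, 18600 and 19900 CPM in Rnf40ΔSC libraries.

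In control nerve, HOX transcripts came from all 4 clusters and mainly from paralog groups 3 to 6 and 8 to 10. Levels between genes were compared per length, as CPM per kb of annotated exon. Hoxd8, a gene of the trunk, was highest in control at 9.31 ± 0.924 CPM per kb (SD, n = 3). It was followed by Hoxc10, known from the hindlimb and lumbar cord, at 9.29 ± 2.65 CPM per kb and by Hoxc6, a thoracic gene, at 8.79 ± 2.60 CPM per kb. Hoxc4 (6.10 ± 2.11 CPM per kb), Hoxa5 (5.47 ± 1.55), Hoxa10 (5.44 ± 1.58), Hoxa9 (4.79 ± 1.09) and Hoxb3 (4.53 ± 0.394) came next, and neighbours in this order differed by less than their SD, except for Hoxc6 against Hoxc4, whose ranges still overlapped. Hoxd4 at 3.10 ± 1.10 CPM per kb was the ninth, and each other gene was below 3 CPM per kb. The length included bases shared with other genes, 67.4% for Hoxd4 and 37.9% for Hoxb3, so that the places of such genes are uncertain. The pattern held anterior genes such as Hoxb3 beside posterior genes such as Hoxa10.

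**Figure D1:**
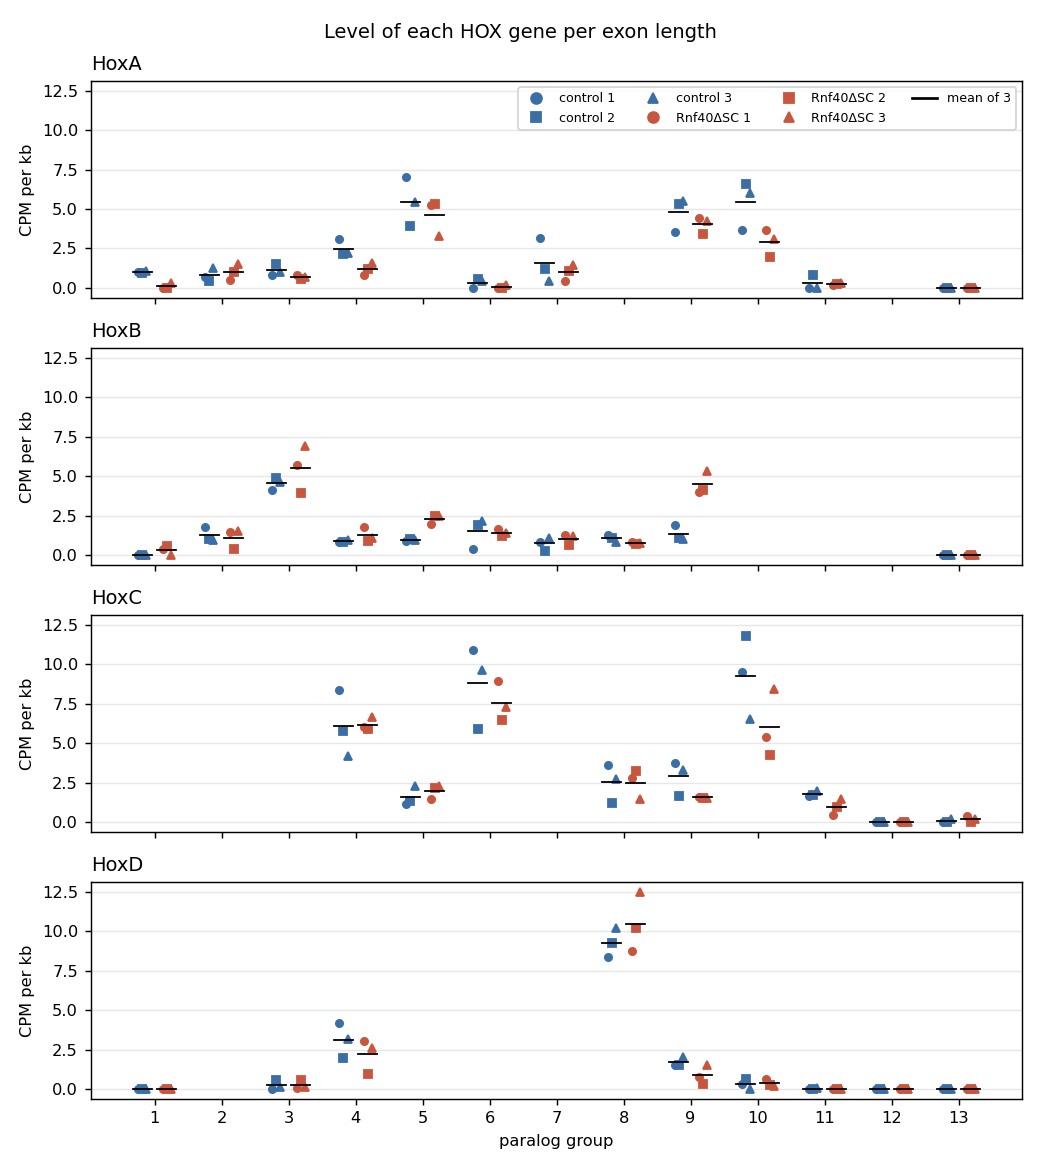
Level of each of the 39 HOX genes in CPM per kb of exon (vertical axis) by paralog group (horizontal axis), with 1 panel per cluster, 1 point per library and a bar for the mean of 3 libraries. Hoxd8, Hoxc10 and Hoxc6 are highest in control, and Hoxb9 is the gene whose Rnf40ΔSC points (mean 4.48 CPM per kb) stand farthest above its control points (mean 1.35 CPM per kb).

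None of the genes with the highest level per length in its cluster passed the test. For HoxD, Hoxd8 had 28, 45 and 63 counts in control and 56, 45 and 83 in Rnf40ΔSC libraries, or 47.9 ± 4.75 against 54.1 ± 9.72 normalized counts, and the groups overlapped. Its log2 fold change was 0.16 (adjusted p = 0.576, standard error 0.20, edgeR). For HoxB, Hoxb3, which acts in the hindbrain and neck, had 15, 26 and 31 counts in control and 40, 19 and 50 in Rnf40ΔSC libraries. After scaling, Rnf40ΔSC replicate 2 lay below all control libraries and the other 2 above them, and the log2 fold change was 0.30 (adjusted p = 0.403, standard error 0.26). For HoxA, Hoxa5, a gene of the neck and thorax needed in lung, had 16, 13 and 23 counts in control and 23, 16 and 15 in Rnf40ΔSC libraries. Its groups overlapped, and its log2 fold change was -0.23 (adjusted p = 0.649, standard error 0.34). For HoxC, Hoxc10 had 22, 40 and 28 counts in control and 24, 13 and 39 in Rnf40ΔSC libraries, and the groups overlapped. Its log2 fold change was -0.56 (adjusted p = 0.133, standard error 0.28). The value of Hoxc10 differed between alternatives, at -0.33 without control replicate 2, -0.80 without control replicate 3 and -0.29 with total-count scaling. It also differed with the use of Rnf40ΔSC replicate 3, the library with muscle RNA. Without that library its log2 fold change was -0.88 (adjusted p = 0.0275), and with that library as the lone Rnf40ΔSC sample, assumed to vary like the control group, it was -0.10 (adjusted p = 0.868). The part of muscle RNA in this difference was not tested.

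The most posterior paralog group detected, with more than 3 counts in every library of a genotype, was group 11. Hoxc11, a gene of the lumbosacral level and hindlimb, had 4, 6 and 9 counts in control and 2, 3 and 7 in Rnf40ΔSC libraries. Hoxa11 had 0, 4 and 0 counts in control and 1, 1 and 2 in Rnf40ΔSC libraries, and Hoxd11 had 1 count in control replicate 3 alone. None of the group passed the filter for testing. The 2 genes of group 12 had no read, and the 4 genes of group 13 had 1 count in control and 3 in Rnf40ΔSC libraries, all of them on Hoxc13.

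Of the 39 HOX genes, 15 passed the filter on low counts (edgeR's filterByExpr, here at least 4.79 CPM before TMM scaling in 3 libraries). Hoxb9 and Hoxb5 rose in Rnf40ΔSC nerves, Hoxa10 fell, and the other 12 did not pass an adjusted p of 0.05. The 2 higher genes stand against a background of 1756 of 11371 genes (15.4%), and the 1 lower gene against 1841 (16.2%), shares near which a count is no result about HOX genes. Of the 15, 8 were over the filter in all 6 libraries, whereas Hoxb9 and Hoxb5 were over it in all 3 Rnf40ΔSC and in 0 control libraries. Genes that enter through a single genotype in this way have to differ, and the share of HOX genes past the test was not read further. The limits of the study were a log2 fold change of 0.8 or more in either direction, a mean of at least 20 normalized counts and a p of at most 0.05, which its text does not call adjusted and for which the adjusted p was used here. With them, 0 HOX genes were higher and 1, Hoxa10, was lower. Among all genes tested, 415 (3.65%) were higher and 567 (4.99%) were lower by these limits. Taken at an unadjusted p under 0.05 with the same limits on fold change and mean, 0 HOX genes were higher by edgeR, and DESeq2 gave 0 at its adjusted p. Hoxb9 and Hoxb5 had mean normalized counts of 14.1 and 8.58, below the limit of 20.

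The direction of calls over all genes depended on scaling. Of all genes past an adjusted p of 0.05, 48.8% were higher with TMM and 81.1% with total counts, and of those past the limits of the study 42.3% and 79.4%. The median log2 fold change of all genes tested was -0.00255 with TMM and 0.27 with total counts, and changes with the latter are read relative to that shift.

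Hoxb9, which acts with its paralogs at thoracic levels, had 6, 5 and 6 counts in control replicates 1, 2 and 3 and 24, 17 and 33 in Rnf40ΔSC replicates 1, 2 and 3. All 3 Rnf40ΔSC libraries lay above all 3 control libraries, and the library with muscle RNA was the highest. Normalized counts were 6.53 ± 2.37 in control and 21.6 ± 3.47 in Rnf40ΔSC nerves (SD, n = 3 each). The log2 fold change was 1.80 (standard error 0.40, 95% interval 1.02 to 2.62), a 3.48-fold rise with an adjusted p of 0.000412 (edgeR, range over all alternatives 5.93e-05 to 0.00919). It was 1.66 without Rnf40ΔSC replicate 3 and 2.04 without replicates 1 and 2. No exon of Hoxb9 overlapped another annotated gene, while its longest stretch identical to a HOX gene of another cluster was 50 bases, in Hoxc9. The read length is not given in the sources used here, so that reads within this stretch could have been dropped as not unique in either genotype.

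Hoxb5, a gene active in the gut neural crest and the lung, had 3, 5 and 6 counts in control and 13, 11 and 17 in Rnf40ΔSC libraries. The groups did not overlap, and the 3 libraries of each genotype were close to each other after scaling, at 4.98 ± 0.334 and 12.2 ± 1.49 normalized counts. The log2 fold change was 1.25 (standard error 0.46, 95% interval 0.34 to 2.20) with an adjusted p of 0.0307 (edgeR). The call rested on few counts and was lost with DESeq2 (adjusted p = 0.14), without a filter (0.0535) and when control replicate 1 (0.0829), control replicate 2 (0.0822), control replicate 3 (0.104), Rnf40ΔSC replicate 2 (0.0751), Rnf40ΔSC replicate 3 (0.0877) or both of replicates 1 and 2 of Rnf40ΔSC (0.135) were left out, over a range of 0.00648 to 0.14. An antisense gene, 0610040B09Rik, shares 3.6% of the exon bases of Hoxb5, and the strand setting of the counting is not given, so that reads of the pair cannot be told apart there.

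Hoxa10, a gene of lumbar levels, the hindlimb and the reproductive tract, had 17, 45 and 52 counts in control and 33, 12 and 29 in Rnf40ΔSC libraries. Scaled, control replicate 1 with 26.2 normalized counts lay just below Rnf40ΔSC replicate 1 with 26.6, and the other control libraries had 47.7 and 43.5 against 14.1 and 22.5 in the other Rnf40ΔSC libraries. The log2 fold change was -0.89 (standard error 0.27, 95% interval -1.43 to -0.36) with an adjusted p of 0.0084 (edgeR, range over all alternatives 0.00326 to 0.0782). The call was lost without control replicate 2 (adjusted p = 0.0782), without control replicate 3 (0.0653), without both Rnf40ΔSC replicates 1 and 2 (0.0701), with total-count scaling (0.0568) and with DESeq2 (0.0529). Hoxa10 overlapped no other annotated exon.

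**Figure D2:**
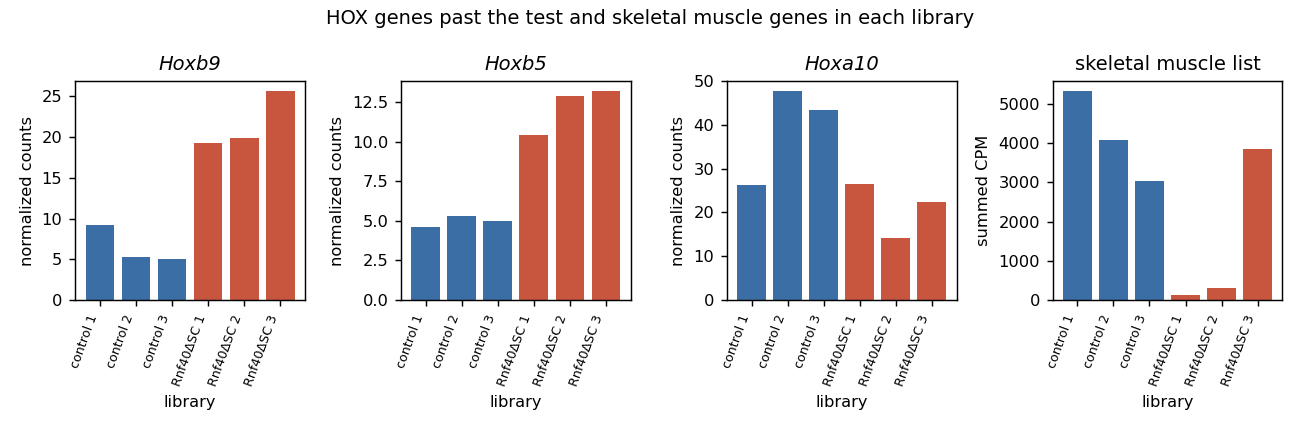
Bars give normalized counts of Hoxb9, Hoxb5 and Hoxa10 and the summed CPM of 18 skeletal muscle genes (vertical axes) in each library (horizontal axes), with control in blue and Rnf40ΔSC in red. Rnf40ΔSC replicate 3, with 3840 CPM of muscle genes, has Hoxb9 and Hoxb5 values on the side of the other Rnf40ΔSC libraries.

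The remaining HOX genes tested had log2 fold changes between -0.72 for Hoxa3 and 0.30 for Hoxb3, and Hoxa3 was the 1 gene tested whose Rnf40ΔSC libraries all lay below control. It had 7, 18 and 16 counts in control and 13, 6 and 11 in Rnf40ΔSC libraries (log2 fold change -0.72, adjusted p = 0.159, standard error 0.39, edgeR). Groups that do not overlap were found for 2 of 15 HOX genes in the higher and 1 of 15 in the lower direction, against 22% and 21.6% of all genes tested. The intervals of these genes were wide. For Hoxc8, whose log2 fold change was -0.00231, the 95% interval ran from -0.89 to 0.88, and for Hoxd8, with the most counts, from -0.24 to 0.57.

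**Figure D3:**
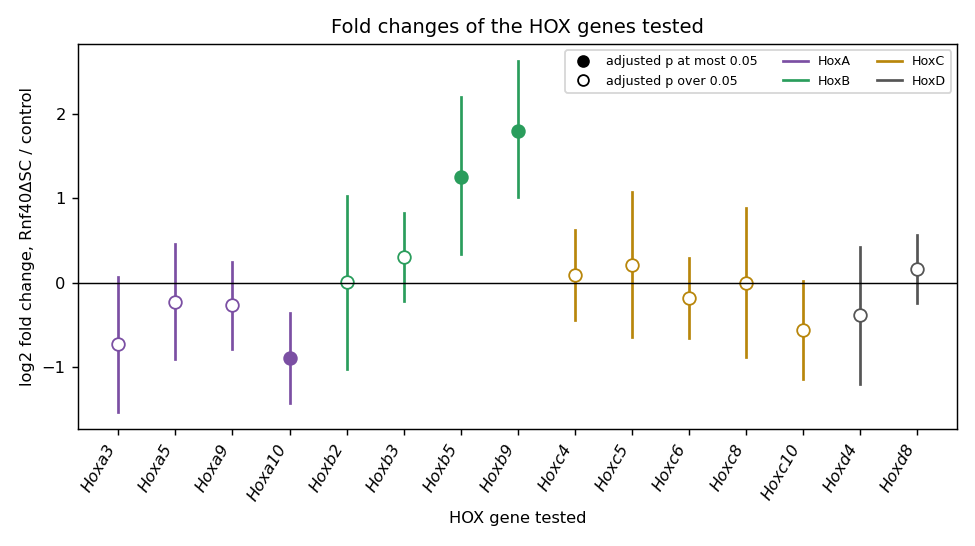
Log2 fold change of Rnf40ΔSC over control (vertical axis) with its 95% interval for each of the 15 HOX genes tested (horizontal axis), coloured by cluster, with filled circles for genes past an adjusted p of 0.05. Hoxb9 at 1.80 and Hoxb5 at 1.25 are the filled circles above 0, and Hoxa10 at -0.89 is the one below.

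Of the 24 HOX genes below the filter, 18 had at least 1 read. Their counts are given as ratios of Rnf40ΔSC to control per unit of depth, with exact 95% binomial intervals that cover counting error only. Chosen after their values were seen, 5 of them had Rnf40ΔSC libraries that all lay below control, among them Hoxa4, Hoxb8, Hoxc9 and Hoxc11, and 0 had them all above. Of all 5768 genes with a read below the filter, 244 (4.23%) lay below in this way and 438 (7.59%) above, but a gene with fewer than 3 reads cannot separate the groups, and the HOX genes were not matched to these genes by count. In edgeR's test without a filter 1 HOX gene was higher and 2 were lower, where 1852 of 17139 genes (10.8%) were lower and 1923 (11.2%) were higher. Hoxc9 had 36 counts in control and 24 in Rnf40ΔSC libraries (ratio 0.549, interval 0.313 to 0.946). The intervals of Hoxa4 (ratio 0.494), Hoxb8 (0.765) and Hoxc11 (0.520) included 1. Hoxb4 (19 and 34 counts, ratio 1.47) and Hoxb7 (16 and 28 counts, ratio 1.44) had the largest ratios among genes with over 10 counts in each genotype.

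Sorted by cluster, HoxB took a larger and HoxA a smaller part of the HOX counts in Rnf40ΔSC nerves. Such shares are computed inside a library and need no scaling, and all 39 genes enter them, whether tested or not. HoxB held 15.9%, 16.3% and 16.8% of HOX counts in control replicates 1, 2 and 3 and 27.5%, 23.9% and 27.1% in Rnf40ΔSC replicates 1, 2 and 3. The Wilson 95% intervals ran from 12.1% to 20.7% in the lowest control library and from 19.3% to 29.2% in the lowest Rnf40ΔSC library, so that single libraries could overlap by counting error, but the measured shares did not. HoxA held 27.8%, 34.9% and 31.9% in control and 24.0%, 23.2% and 22.3% in Rnf40ΔSC libraries, again without overlap. HoxC held 34.3% ± 4.76 (SD, n = 3) in control and 31.6% ± 1.39 in Rnf40ΔSC libraries, and HoxD 17.8% ± 1.11 and 19.1% ± 1.58, both with overlapping groups.

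**Figure D4:**
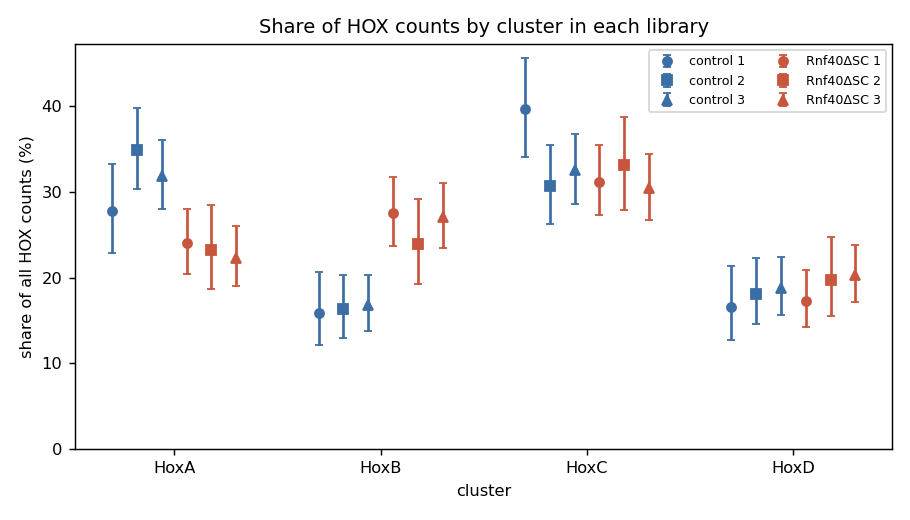
Share of all HOX counts (vertical axis, %) taken by each cluster (horizontal axis) in each library, with Wilson 95% intervals for counting error. HoxB lies between 15.9% and 16.8% in control and between 23.9% and 27.5% in Rnf40ΔSC libraries, and HoxA is lower in all Rnf40ΔSC libraries.

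The ratio of HoxB to HoxA counts put this in 1 value per library. It was 0.571, 0.466 and 0.525 in control and 1.15, 1.03 and 1.21 in Rnf40ΔSC libraries, with the library that held muscle RNA at 1.21. The mean was 0.521 ± 0.0528 in control and 1.13 ± 0.0934 in Rnf40ΔSC libraries (SD, n = 3 each), a 2.17-fold difference, which was given no p, since the members were chosen with results known. Part of it came from the 3 genes past the test. Without Hoxb9, Hoxb5 and Hoxa10, an alternative added after seeing the data, the ratios were 0.583, 0.591 and 0.667 in control and 1.16, 0.741 and 1.05 in Rnf40ΔSC libraries, or 1.60-fold on average and still without overlap. Without the most abundant gene of each of the 2 clusters, Hoxa10 and Hoxb3, the difference was 2.23-fold. HoxB also stood higher against HoxC (0.482 ± 0.0712 in control, 0.831 ± 0.0937 in Rnf40ΔSC) and against HoxD (0.916 ± 0.0350 and 1.38 ± 0.192), and neither pair overlapped. The ratio of HoxC to HoxA did overlap (1.11 ± 0.285 and 1.36 ± 0.0599), whereas that of HoxD to HoxA did not (0.597, 0.519 and 0.588 in control, 0.722, 0.848 and 0.909 in Rnf40ΔSC libraries).

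On the CPM scale, HoxB genes summed to 36.3 ± 1.23 CPM in control and 53.3 ± 9.61 CPM in Rnf40ΔSC libraries (1.47-fold), and HoxA genes to 70 ± 6 and 46.9 ± 4.90 CPM (0.670-fold). HoxC genes summed to 76.5 ± 12.6 and 63.8 ± 4.79 CPM and HoxD genes to 39.6 ± 2.11 and 38.7 ± 5.90 CPM. With total-count scaling these quotients were 1.77 for HoxB and 0.808 for HoxA, on the same sides of 1, whereas HoxC moved from 0.834 to 1 and HoxD from 0.978 to 1.18. The median log2 fold change was -0.50 over the 4 HoxA genes tested, 0.78 over 4 HoxB genes, -0.00231 over 5 HoxC genes and -0.11 over 2 HoxD genes, beside -0.00255 for all genes tested. The HoxD median changed sign between alternatives, from -0.24 without control replicate 2 to 0.155 with total-count scaling. With at least 10 counts in every library it was 0.17, the value of Hoxd8 alone. The HoxB median is raised by the filter, since it includes Hoxb9 and Hoxb5, which passed it through Rnf40ΔSC libraries alone. It was 0.42 without control replicate 2. With at least 10 counts in every library, where neither Hoxb9 nor Hoxb5 was tested, it was 0.32, the value of Hoxb3 alone.

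By paralog group, a sum could stay close between genotypes while a member of the group passed the test. Group 9 summed to 30.9 ± 3.00 CPM in control and 31.3 ± 4.36 CPM in Rnf40ΔSC libraries, although Hoxb9 rose. Its other members had 91 counts in control and 91 in Rnf40ΔSC libraries for Hoxa9, 36 and 24 for Hoxc9 and 20 and 13 for Hoxd9. Counted inside each library, the ratio of Hoxb9 to Hoxa9 was 0.400, 0.152 and 0.140 in control and 0.667, 0.895 and 0.917 in Rnf40ΔSC libraries. Group 5 summed to 18.9, 14.1 and 19.6 CPM in control and to 19.7, 23.1 and 19.9 CPM in Rnf40ΔSC libraries, a quotient of 1.19 with groups that just did not overlap. The ratio of Hoxb5 to Hoxa5 was 0.188, 0.385 and 0.261 in control and 0.565, 0.688 and 1.13 in Rnf40ΔSC libraries. Hoxb3 to Hoxa3 was 2.14, 1.44 and 1.94 against 3.08, 3.17 and 4.55. These 3 pairs were chosen after their values were seen, and Hoxb3 and Hoxa3 did not pass the test as single genes. Of the other 3 pairs in which the HoxA gene had a read in every library, Hoxb4 to Hoxa4 was 0.667, 1.00 and 1.12 against 5.67, 2.00 and 1.83, without overlap. Hoxb2 to Hoxa2 overlapped and was lower on average (2.5 ± 1.32 in control, 1.83 ± 1.64 in Rnf40ΔSC), and Hoxb7 to Hoxa7 overlapped as well (1.34 ± 1.72 and 2.00 ± 1.74).

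Group 10 was the group with the most counts in control and the one with the largest difference among groups of over 100 counts. It summed to 39.5 ± 9 CPM in control and 23.7 ± 6.53 CPM in Rnf40ΔSC libraries, a quotient of 0.600, and the 3 Rnf40ΔSC values of 26.2, 16.2 and 28.6 CPM lay below the control values of 32.9, 49.7 and 35.7 CPM. Hoxa10 and Hoxc10 made up nearly all of it, and their ratio to each other overlapped between genotypes (1.25 ± 0.553 and 1.01 ± 0.325). Within HoxA, Hoxa10 lost against its neighbour Hoxa9, with ratios of 1.13, 1.36 and 1.21 in control and 0.917, 0.632 and 0.806 in Rnf40ΔSC libraries. The median log2 fold change of the genes tested was 0.77 in group 9 (2 genes), -0.73 in group 10 (2 genes), 0.21 in group 5 (3 genes), 0.08 in group 8 (2 genes), -0.21 in group 3 (2 genes) and -0.15 in group 4 (2 genes). Groups 2 and 6 had 1 gene tested each, Hoxb2 with 0.0048 and Hoxc6 with -0.18, and groups 1, 7, 11, 12 and 13 had none. These medians of 1 to 3 genes moved with the choice of libraries, scaling and filter. That of group 9 rests on Hoxb9, which entered through Rnf40ΔSC libraries alone while Hoxc9 and Hoxd9 were below the filter, so that it is no result about the group, whose sum was 1.01 of control. It ran from -0.33 to 1.03 and was below 0 without control replicate 2, without any 1 of the Rnf40ΔSC libraries and with at least 10 counts in every library, where Hoxb9 was not tested. Group 10 kept its sign (-0.90 to -0.46), and the sign of each other group turned in at least 1 alternative.

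**Figure D5:**
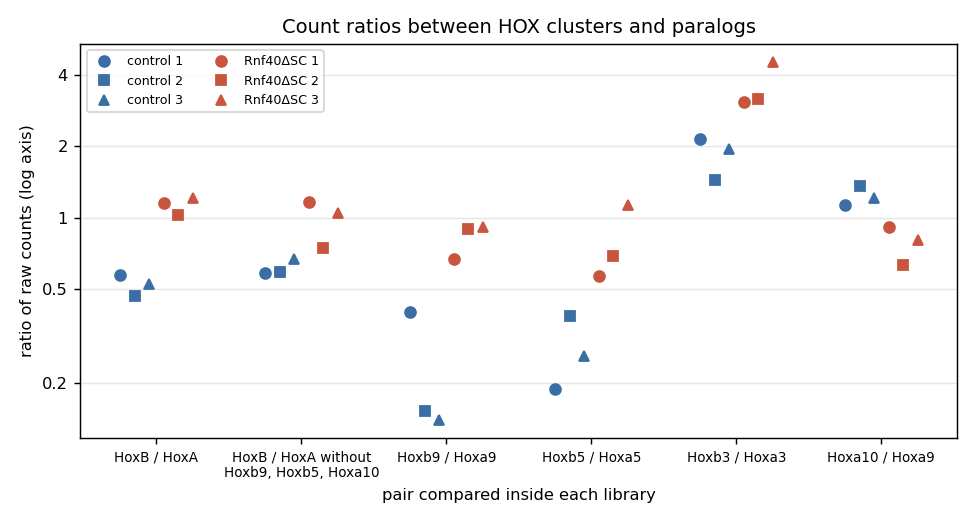
Ratios of raw counts (vertical axis, log scale) between clusters or paralogs (horizontal axis), with 1 point per library. For HoxB over HoxA the control points lie between 0.466 and 0.571 and the Rnf40ΔSC points between 1.03 and 1.21, and no pair shown, chosen after the values were seen, has overlapping groups.

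HOX paralogs are close in sequence, which bears on how well uniquely mapped reads can be told apart. The homeobox, the stretch of 60 codons that encodes the homeodomain, was read from the GENCODE vM1 coding sequences and placed on mm9, and all 39 HOX genes had one of full length. Those of Hoxa10 (chr6:52182553-52182732, minus strand) and Hoxc10 (chr15:102801279-102801458, plus strand), the pair that makes up most of group 10, lie in coding exons, have 180 bases each and were identical at 80.6% of them. Both are shown 5′ to 3′ with the 35 differing bases in capitals.
Hoxa10: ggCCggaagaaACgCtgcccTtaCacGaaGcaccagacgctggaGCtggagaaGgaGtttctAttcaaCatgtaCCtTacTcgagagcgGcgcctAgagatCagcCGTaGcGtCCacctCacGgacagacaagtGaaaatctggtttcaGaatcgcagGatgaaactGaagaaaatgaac
Hoxc10: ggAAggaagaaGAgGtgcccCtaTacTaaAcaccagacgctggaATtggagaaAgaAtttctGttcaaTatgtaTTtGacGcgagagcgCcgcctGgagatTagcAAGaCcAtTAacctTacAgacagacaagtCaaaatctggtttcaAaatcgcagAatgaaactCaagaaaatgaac
Over the full exons, the longest stretch shared with a HOX gene of another cluster was 50 bases for Hoxb9, 28 for Hoxb5, 21 for Hoxa10, 31 for Hoxa9, 32 for Hoxa5 and 23 for Hoxc10. Exons that overlap another annotated gene were a further limit, and 18 of the 39 HOX genes shared exon bases in this way. The share was 67.4% for Hoxd4, which overlaps Hoxd3 transcripts, 49.4% for Hoxb2, 40.4% for Hoxb8, 38.6% for Hoxa11, 37.9% for Hoxb3, 35.8% for Hoxd3 and 28.0% for Hoxa3, so that counts of these genes are uncertain. The annotation used by the authors for counting is not given in the sources used here.

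The 250 bases before the start of the transcript numbered 1 in the annotation are shown for Hoxb5 and Hoxa10, which passed the test in opposite directions. They were read from mm9 on the strand of the gene, and capitals mark matches, on either strand, to a TATA box, a CCAAT box or a site of EGR proteins, of PBX with HOX, of MEIS or of retinoid receptors, spelled below. The Hoxb5 window (chr11:96163659-96163908, plus strand) lies in an intron of the antisense gene 0610040B09Rik, and the Hoxa10 window (chr6:52184939-52185188, minus strand) in an intron of a longer Hoxa10 transcript.
Hoxb5: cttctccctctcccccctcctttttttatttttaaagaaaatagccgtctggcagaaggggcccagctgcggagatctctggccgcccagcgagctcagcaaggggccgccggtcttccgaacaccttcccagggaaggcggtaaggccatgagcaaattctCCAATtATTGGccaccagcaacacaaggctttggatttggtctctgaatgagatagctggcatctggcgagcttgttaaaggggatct
Hoxa10: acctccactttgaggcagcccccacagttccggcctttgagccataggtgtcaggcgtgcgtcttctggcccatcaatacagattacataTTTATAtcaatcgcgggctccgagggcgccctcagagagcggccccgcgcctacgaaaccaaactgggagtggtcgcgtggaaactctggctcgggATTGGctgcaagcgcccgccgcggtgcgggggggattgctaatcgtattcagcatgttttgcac
The Hoxb5 window held a pair of CCAAT boxes in opposite directions and the Hoxa10 window a TATA box and a CCAAT box, both on the opposite strand. No 2 different motifs overlapped in these windows. Among 22227 windows of coding genes of the same length, the CCAAT box was found in 34.9%, the MEIS site (TGACAG) in 14.9% and the TATA box (TATAAA) in 12.3%. The site of retinoid receptors (AGGTCA) was found in 12.3% of them, the PBX-HOX site (TGATNNAT) in 6.9% and the EGR site (GCGTGGGCG) in 0.679%. Among the 39 HOX windows, 24 held the CCAAT box, 5 the TATA box, 5 the PBX-HOX site, 3 the MEIS site, 1 the site of retinoid receptors and 0 the EGR site.

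Genes known to act with or on HOX genes were described from lists by their counts and medians. Of 10 TALE cofactors tested, 0 passed an adjusted p of 0.05 in edgeR's test, 2 had an unadjusted p under 0.05 and 0 passed by DESeq2, and their median log2 fold change was 0.23, beside -0.00255 for all genes tested. With total-count scaling 5 were higher, as were 3766 of all 11371 genes tested. None of the non-coding genes inside the clusters reached the filter. Of 13 in the tables, 9 were at 0, among them the microRNA genes Mir10a, Mir10b and Mir196b. The exons of Mir10a and Mir196b overlap those of Hoxb4 and Hoxa9, and counting there is uncertain, so their 0 was not read as absence. Hotair, an antisense RNA between Hoxc11 and Hoxc12, had 5, 6 and 7 counts in control and 4, 3 and 9 in Rnf40ΔSC libraries.

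Genes that border the clusters did not share a direction. Of 20 tested, 4 rose, 2 fell and 14 did not pass, with a median log2 fold change of 0.06 and 5 past the test of DESeq2. These counts lie near the shares of all genes (15.4% higher and 16.2% lower), so that they are no result about the list, and the single genes below are given as values only. Near HoxD, Hnrnpa3, an RNA-binding protein gene, rose by a log2 fold change of 1.10 (adjusted p = 0.000848, standard error 0.25, edgeR) and Atp5g3, a subunit of the mitochondrial ATP synthase, by 0.63 (adjusted p = 0.000279), while Agps, an enzyme of ether lipid synthesis, had -0.33 (adjusted p = 0.0298). Near HoxC, Copz1, a coat protein of vesicles, rose by 0.40 (adjusted p = 0.00687). Near HoxA, Skap2, an adaptor of Src kinases, fell, with 16, 24 and 24 counts in control and 12, 9 and 7 in Rnf40ΔSC libraries (log2 fold change -1.46, adjusted p = 0.00166), while Tax1bp1, an autophagy receptor, rose by 0.32 (adjusted p = 0.00879). None of the bordering genes near HoxB, the cluster with Hoxb9 and Hoxb5, passed, among them Cbx1, named after its value was seen (log2 fold change 0.01, adjusted p = 0.966). With Rnf40ΔSC replicate 3 as the lone sample of its group, the median log2 fold change of the bordering genes was 0.006. Evx1 and Evx2, the homeobox genes next to the posterior ends of HoxA and HoxD, were at 0 in all libraries.

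Retinoic acid is a known inducer of HOX genes in the embryo. Of 14 genes tested from a list of its receptors, enzymes and binding proteins and of the caudal genes, 2 rose, 4 fell and 8 did not pass, with a median log2 fold change of -0.09 and 5 past the test of DESeq2, beside 15.4% higher and 16.2% lower among all genes. Crabp1, a binding protein of retinoic acid, had 0, 4 and 4 counts in control and 83, 47 and 101 in Rnf40ΔSC libraries. The groups lay far apart, and the log2 fold change was 4.50 (adjusted p = 9.38e-13, standard error 0.36, edgeR). Like Hoxb9 and Hoxb5, Crabp1 passed the filter through Rnf40ΔSC libraries alone and had to differ. Its fold stands over few control counts and is uncertain. Aldh1a1, an enzyme that makes retinoic acid, rose from 40.6 ± 8.34 to 89.5 ± 3.46 normalized counts (log2 fold change 1.15, adjusted p = 5.62e-06). Rxrg, a retinoid X receptor, had 18, 23 and 34 counts in control and 4, 1 and 5 in Rnf40ΔSC libraries, and fell (log2 fold change -3.14, adjusted p = 2.47e-07, standard error 0.43, edgeR). It passed the filter through control libraries alone, so that it had to differ as well. Dhrs3, a reductase that lowers retinaldehyde, fell (log2 fold change -0.97, adjusted p = 3.47e-07), as did the receptors Rarg (-0.56, adjusted p = 0.000637) and Rara (-0.56, adjusted p = 0.0125). With total-count scaling 3 genes of the list were higher and 2 were lower, beside 3766 higher and 880 lower of all 11371 genes tested. With Rnf40ΔSC replicate 3 as the lone sample of its group, the median log2 fold change of the list was -0.14. The caudal genes Cdx1, Cdx2 and Cdx4 were at 0.

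Markers of the cell types of the nerve were read beside the HOX values, as levels of RNA and not as numbers of cells. The counts of lower and higher genes below stand against 16.2% lower and 15.4% higher of all genes tested with TMM, 880 lower and 3766 higher of 11371 with total-count scaling, and 1263 lower and 1119 higher of 11988 with Rnf40ΔSC replicate 3 as the lone sample of its group. Of 10 Schwann cell genes tested, 8 fell and 1 rose. Sox10, the transcription factor of the lineage, fell (log2 fold change -0.79, adjusted p = 8.8e-09, edgeR), and Egr2, a regulator of myelin genes, rose by 0.36 (adjusted p = 0.00579). Without control replicate 3, 0 genes of the list were higher, so that the call of Egr2 was lost. Fibroblasts, in which HOX patterns are known to persist, had 10 of 14 genes lower and 0 higher (6 and 1 with total-count scaling), with a median log2 fold change of -0.41 and summed levels of 54900, 53600 and 58000 CPM in control and 41000, 39300 and 38800 CPM in Rnf40ΔSC libraries. Their most abundant gene was Col3a1, and none was at 0. Of perineurial genes tested 4 of 8 were lower (1050, 1190 and 1180 CPM in control, 729, 614 and 677 CPM in Rnf40ΔSC libraries, led by Itgb4), and of endothelial genes 6 of 10 (908, 792 and 903 against 580, 564 and 689 CPM, Cdh5). Itgb4, the most abundant of the perineurial list, fell by a log2 fold change of -1.69, and which cells carried it was not tested. The other perineurial genes past the test were Slc2a1 (-0.66), Cldn1 (-0.28) and Msln (-1.22). Of pericyte and smooth muscle genes 4 of 8 were lower (1110, 864 and 958 against 566, 564 and 777 CPM, Pdgfrb), and of macrophage genes 7 of 12 (562, 518 and 550 against 386, 381 and 384 CPM, Csf1r). None of these 4 lists held a higher gene or a gene at 0. Without Rnf40ΔSC replicate 3 the lower pericyte and smooth muscle genes numbered 7, and without control replicate 2 the lower macrophage genes numbered 4. With total-count scaling the lower genes numbered 3 perineurial, 1 endothelial, 3 pericyte and smooth muscle and 2 macrophage genes, and with Rnf40ΔSC replicate 3 as the lone sample of its group 5, 2, 3 and 4, so that the endothelial and macrophage counts depended most on these choices. Of adipocyte genes 4 of 8 were lower with overlapping sums, and in the neuron list 1 of 3, Snap25, rose while Isl1 was at 0. Snap25 passed the filter through Rnf40ΔSC libraries alone and had to differ. Hoxb9 and Hoxb5 rose in libraries in which the summed markers of Schwann cells and fibroblasts were lower. The part of cell composition in the HOX values was not tested, nor was it tested which cells of the nerve carried the HOX transcripts.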

How the data were processed

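The authors aligned reads of 6 libraries to mm9 with TopHat and deposited raw counts per gene, whole numbers from HTSeq for uniquely mapped reads, without normalization. The submitters' notes also name Bowtie2 2.1.0, and both mm9 and mm10, without roles. Gene annotation and strand setting are not given in the sources used here, and 0 entries name no gene. The labels name the kit NEB Next Ultra, and the methods a directional kit. Replicates differed by more than sampling noise (chi-square per degree of freedom 1.78 to 5.21).

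The test of counts used edgeR 4.0.16 under R 4.3.3 (filterByExpr, TMM, robust quasi-likelihood fit, genotype as the only term, Benjamini-Hochberg adjustment over all 11371 genes tested), and scripts were tested on simulated data. Normalized counts are counts scaled to the geometric mean of the TMM library sizes. Standard errors come from the fitted model, and intervals are at 95%. Exon lengths, overlaps, homeoboxes and upstream windows are from GENCODE vM1 on mm9, counted from 1, which held all 39 HOX genes. Alternatives were RLE or total-count scaling, DESeq2 1.42.0 without a fold-change prior, no filter, 10 counts or more in each of the libraries, a block for replicate number and each library left out. Added after seeing the data were leaving out both Rnf40ΔSC libraries low in muscle genes, a filter on a mean of 5 counts, and cluster ratios without certain genes.

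Members and lists were chosen with earlier results of these data known. Values in every library are given for each HOX gene past an adjusted p of 0.05, for the gene with the highest level per length in each cluster and for the most posterior group with more than 3 counts in every library of a genotype. From other lists up to 6 genes past an adjusted p of 0.05 are named, lowest p first, and Rnf40. Further genes were named after their values were seen. The lists cover HOX genes, TALE cofactors, non-coding and bordering genes, retinoic acid and caudal genes, polycomb and trithorax genes, and markers of 9 cell types. ChIP-Seq data of the study were not analysed here.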

Additional observations from a re-analysis of the deposited data

How the results depend on the processing

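Hoxb9 kept its direction and an adjusted p of at most 0.05 under all 13 alternatives that tested it, with log2 fold changes from 1.62 to 2.07. Like Hoxb5, it entered the main test through Rnf40ΔSC libraries alone, and refits of the same libraries are no separate support. Hoxb5 stayed between 1.19 and 1.52 and passed in 5 of 13, and Hoxa10 between -1.07 and -0.62 and passed in 9 of 14. The causes of the changes below were not tested, except where fewer genes or libraries entered.

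With each library left out in turn, the HOX genes past an adjusted p of 0.05 numbered 1 to 2 higher and 0 to 2 lower, and 0 to 2 lower by the limits of the study. Log2 fold changes ran from -0.23 to 0.32 for Hoxb2, -0.15 to 0.33 for Hoxc4 and -0.33 to 0.31 for Hoxc8, and medians from 0.42 to 0.86 for HoxB, -0.33 to 0.0618 for HoxC and -0.00202 to 0.0039 for all genes tested. The HoxC sum ran from 0.78 to 0.918 of control. Genes past an adjusted p of 0.05 ran from 0 to 2 higher TALE cofactors, 1 to 2 lower bordering genes and 4 to 7 higher polycomb and trithorax genes.

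With total-count scaling the median log2 fold change of all genes tested was 0.27, 3766 genes were higher and 880 lower (1008 and 261 by the limits of the study), and 0 HOX genes were lower by either rule. Rnf40 had -0.27, Hoxa5 0.0389, Hoxa9 0.000285, Hoxc6 0.0827 and Hoxc8 0.26, and medians were -0.23 for HoxA, 1.04 for HoxB and 0.26 for HoxC. Sums were 0.808, 1.77, 1 and 1.18 of control for HoxA, HoxB, HoxC and HoxD. Higher and lower were 5 TALE cofactors and 0, 7 and 1 bordering genes, 14 and 1 polycomb and trithorax genes, and 2 retinoic acid genes were lower. DESeq2 gave 1 higher and 0 lower HOX genes (0 lower by the limits of the study), with Hoxb2 at -0.0696 and Hoxc8 at 0.00706. Without a filter 1 was higher and 2 were lower, with Hoxb2 at -0.000835 and Hoxc8 at 0.00579. With at least 10 counts in every library, Hoxb9 and Hoxb5 were not tested and 0 HOX genes were higher. Medians were then -0.26 for HoxA, 0.32 for HoxB, where Hoxb3 alone was tested, and -0.17 for HoxC. By the same filter 1 TALE cofactor and 1 retinoic acid gene were higher and 1 bordering gene lower. Hoxc8 was at 0.00331 with RLE, and with a mean of at least 5 counts it was at 0.00138 and Hoxb2 at -0.00144.

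The replicate number as a block put Hoxb2 at -0.11 and left 2 HOX genes higher and 1 lower, and Rnf40 at -0.54. Deviations of libraries with the same number correlated at -0.095, -0.015 and -0.062, so the numbers did not pair them.

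Without both Rnf40ΔSC libraries low in muscle genes, the lone sample being assumed to vary like control, 1 HOX gene was higher and 0 lower (0 by the limits of the study), 1119 genes were higher, the HoxD sum was 1.15 of control, 0 bordering genes were higher and 1 lower, 2 retinoic acid genes were lower, and 2 polycomb and trithorax genes were higher and 1 lower. The HoxB to HoxA ratio without Hoxb9, Hoxb5 and Hoxa10 was 1.6 times control. At 277 to 543 HOX counts per library, single HOX genes were limited by depth.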

Other observations

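Polycomb proteins keep HOX clusters silent and trithorax proteins keep them active, in part through methyl groups on histone H3. Of 25 such genes tested, 7 rose, 3 fell and 15 did not pass an adjusted p of 0.05, with 4 past the test of DESeq2 and a median log2 fold change of 0.22 beside -0.00255 for all genes tested. Among all genes 15.4% were higher and 16.2% lower, so that these counts were not read as a result about the list. Kmt2a, a histone methyltransferase of the trithorax group, had 136, 229 and 281 counts in control and 562, 364 and 544 in Rnf40ΔSC libraries. The groups did not overlap, and Kmt2a rose by a log2 fold change of 0.91 (standard error 0.10) with an adjusted p of 2.47e-09 in edgeR. Jarid2, a partner of the polycomb complex that methylates histone H3, had 49, 74 and 103 counts against 161, 114 and 204 (log2 fold change 0.80, adjusted p = 2.83e-05). Its core subunits Eed (0.69, adjusted p = 0.0108) and Suz12 (0.52, adjusted p = 0.0144) also rose, whereas its catalytic subunit Ezh2, named after its value was seen, did not (-0.05, adjusted p = 0.862).

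Members of the other polycomb complex, which ubiquitinates histone H2A, went in both directions, and a difference between the complexes was not tested. Phc3 rose by a log2 fold change of 0.38 (adjusted p = 0.0162, edgeR), while Pcgf2, Cbx7 and Phc1 fell. Pcgf2 had 69, 63 and 99 counts in control and 42, 25 and 75 in Rnf40ΔSC libraries (log2 fold change -1.02, adjusted p = 0.00081). Cbx7, which reads the methylated histone, had 80.3 ± 8.50 normalized counts in control and 51.1 ± 5.24 in Rnf40ΔSC nerves (SD, n = 3 each; log2 fold change -0.64, adjusted p = 0.00502). With total-count scaling 14 genes of the list were higher and 1 was lower, beside 3766 higher and 880 lower of all 11371 genes tested. With Rnf40ΔSC replicate 3 as the lone sample of its group, 2 were higher and 1 was lower, beside 1119 higher and 1263 lower of 11988. A relation of these genes to the HOX counts was not tested.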
